A study of Homo sapiens with 6 samples.

Results

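Keratins and keratin-associated proteins were examined in MDA-MB-231, an established cell line from metastatic human breast cancer, after knockdown of the transcriptional co-activator TAZ by siRNA to its gene, WWTR1. The members were all protein-coding genes of the deposited gene table whose symbol is KRT or KRTAP followed by a number, and they comprised 148 of 46427 genes, 55 of them KRT and 93 KRTAP. RNA was sequenced from 3 cell preparations treated with control-siRNA and 3 treated with TAZ-siRNA (siGENOME WWTR1 siRNA with DharmaFECT4). All 6 preparations were the same wild-type line, grown in low-glucose medium with serum and detached with trypsin and EDTA before RNA extraction, and no other siRNA against WWTR1 was sequenced in the libraries analysed here. Because the libraries came from bulk cultures, fewer cells expressing a gene and less RNA per cell cannot be told apart.

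Keratins are the intermediate filament proteins of epithelial cells. They are obligate heteropolymers, in which an acidic type I keratin assembles with a basic type II keratin. Type I genes lie in a cluster on chromosome 17 and type II genes in a cluster on chromosome 12, where KRT18, a type I gene, lies beside its partner KRT8. Simple epithelial cells, including luminal mammary cells, express KRT8, KRT18, KRT7 and KRT19, whereas KRT5 and KRT14 are the basal cell pair. Hair keratins and KRTAP proteins, which are rich in cysteine or in glycine and tyrosine and cross-link the hair keratin filaments, are best known from the hair shaft.

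The 4 KRTAP2 genes turned out to carry the largest differences between the groups, so the stretches before their start sites are shown first. They lie head to tail on the minus strand of chromosome 17 within 19.3 kb (GRCh38, chr17:41046541-41065879). Each stretch is given 5′ to 3′ on the strand of the gene, from RefSeq (GRCh38.p14), and it lies outside the deposited transcript. Capitals mark TATAAA, the core of a TATA box, in chr17:41047329-41047419 for KRTAP2-1, chr17:41055273-41055363 for KRTAP2-2, chr17:41060115-41060202 for KRTAP2-3 and chr17:41065907-41065997 for KRTAP2-4. In the same order, it begins at -43, -73, -28 and -58 from the listed start site, so its distance differs between the genes. Whether it acts as a TATA box was not tested.
KRTAP2-1: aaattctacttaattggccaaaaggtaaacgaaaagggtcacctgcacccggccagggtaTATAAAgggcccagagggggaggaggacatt
KRTAP2-2: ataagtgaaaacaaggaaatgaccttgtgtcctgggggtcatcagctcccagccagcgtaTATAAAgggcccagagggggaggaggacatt
KRTAP2-3: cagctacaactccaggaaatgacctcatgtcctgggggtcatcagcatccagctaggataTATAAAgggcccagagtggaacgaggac
KRTAP2-4: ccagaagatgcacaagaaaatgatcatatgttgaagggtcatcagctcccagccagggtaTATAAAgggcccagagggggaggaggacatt

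From the TATAAA onwards, the stretches of KRTAP2-1, KRTAP2-2 and KRTAP2-4 were identical over 31 bases, and that of KRTAP2-3 matched each of them at 25 of 28. Over the 60 bases before it, pairs of the stretches were identical at 26 to 43 positions, most between KRTAP2-2 and KRTAP2-3. TATAAA on the strand of the gene occurred in 80 of the 117 promoter windows of 300 bases listed for 113 members (68.4%), against 7.33% of all 35116 windows. GGAATG, the motif of the TEAD factors through which TAZ acts, was searched on both strands and occurred in 17 member windows (14.5%), against 14% of all. TGANTCA, the motif of AP-1, occurred on either strand in 7 member windows (5.98%), against 7.71% of all. Neither motif was present in the 300-base windows of the 4 KRTAP2 genes, and sequence outside the windows was not searched. Promoter windows were available for 8 of the 17 members named by the rule used here. Those of KRT34 and KRT8 do not lie at the start of the deposited transcript with most of the gene's TPM and are not described.

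Total estimated counts lay between 48307548 and 71749634 per library, at which 3 counts correspond to 0.0411 to 0.0618 CPM. CPM denotes counts relative to the TMM-scaled library size, and TPM denotes the deposited values relative to transcript length as well. TAZ-siRNA replicate 3 lay farthest from its group, with a mean absolute deviation of 0.156 on the log2 scale, against 0.11 to 0.139 in the other libraries. The targeted gene WWTR1 had 12828, 11808 and 9228 counts with control-siRNA and 1263, 840 and 843 with TAZ-siRNA, or 191 ± 1.45 and 16.5 ± 1.21 CPM (SD, n = 3 per group), and was significantly decreased (log2 fold change -3.53, SE 0.061, adjusted p = 2.5e-10). Each adjusted p comes from the edgeR quasi-likelihood fit of all 16966 genes that passed its filter, adjusted by Benjamini-Hochberg, with a threshold of 0.05. SE, here and in the figures, was derived from the same test, as the absolute log2 fold change divided by the square root of the F statistic. The labels call the cells epithelial. In the control-siRNA libraries, KRT18 and KRT8 stood at 854 ± 25.9 and 593 ± 11 TPM and the claudin CLDN4 at 34.3 ± 1.61 TPM, whereas other epithelial markers were low, with CDH1 at 0.124 ± 0.112 and EPCAM at 1.81 ± 0.391 TPM. Of the mesenchymal markers, VIM stood at 3733 ± 107 TPM, FN1 at 253 ± 8.51 TPM and SPARC at 34.1 ± 1.71 TPM. ZEB1 stood at 31.7 ± 0.434 TPM, SNAI2 at 19 ± 1.14 TPM and ZEB2 at 14.4 ± 0.413 TPM. CDH2 was low at 0.174 ± 0.0469 TPM, and TWIST1 was at 0. PTPRC, CD3E, MLANA and ADIPOQ, which mark leukocytes, T cells, melanocytes and adipocytes, were at 0 TPM in all 6 libraries.

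Most members were silent in these cells. The estimated count was 0 for 106 of the 148 in every library, and another 21 had counts too low to be tested, with at most 16 in a library. The 21 tested members were 17 KRT and 4 KRTAP genes. Of the 17 hair keratins, 5 were tested, as were 5 of 7 simple epithelial keratins, 6 of 21 stratified epithelial keratins, none of 9 inner root sheath keratins, and KRT222, which stands outside these classes. Of the 49 members on chromosome 21 and the 11 on chromosome 11, all of them KRTAP genes, 1 and 3 had any count and none was tested.

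TAZ knockdown lowered 7 members and raised 1. KRTAP2-1, KRTAP2-2, KRTAP2-3 and KRTAP2-4 fell to a few percent of the control level, KRT34 to 41.2%, KRT7 to 71.3% and KRT81 to 77.2%, whereas KRT19 rose to 129% (ratios of mean CPM). The 8 called members were 38.1% of the 21 tested, against 22.1% of all genes tested, of which 11.9% were higher and 10.2% lower with TAZ-siRNA. KRTAP2-1, KRTAP2-2 and KRTAP2-4 passed the filter on low counts only through the control libraries, where they were high, so a call was nearly fixed for them. KRTAP2-3 had 9, 11 and 22 counts with TAZ-siRNA, around the filter's minimum count of 10, and 498, 398 and 305 with control-siRNA. Among the 17 KRT genes 4 were called, or 23.5%, close to the share over all genes. The groups did not overlap for 10 of the 21 members, 2 higher and 8 lower, against 39.6% of all genes, 20.0% higher and 19.6% lower. The median log2 fold change of the 21 was -0.16, with 4 positive and 17 negative, against a median of -0.0054 over all genes tested. Without TAZ-siRNA replicate 3, KRT18 and KRT86 were called as well, which gave 10 called members, 6 on chromosome 17 and 4 on chromosome 12, while the count over all genes went from 3749 to 5928. The plot of levels by gene shows where each of these genes lay in the range of keratin expression.

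**Figure D1:**
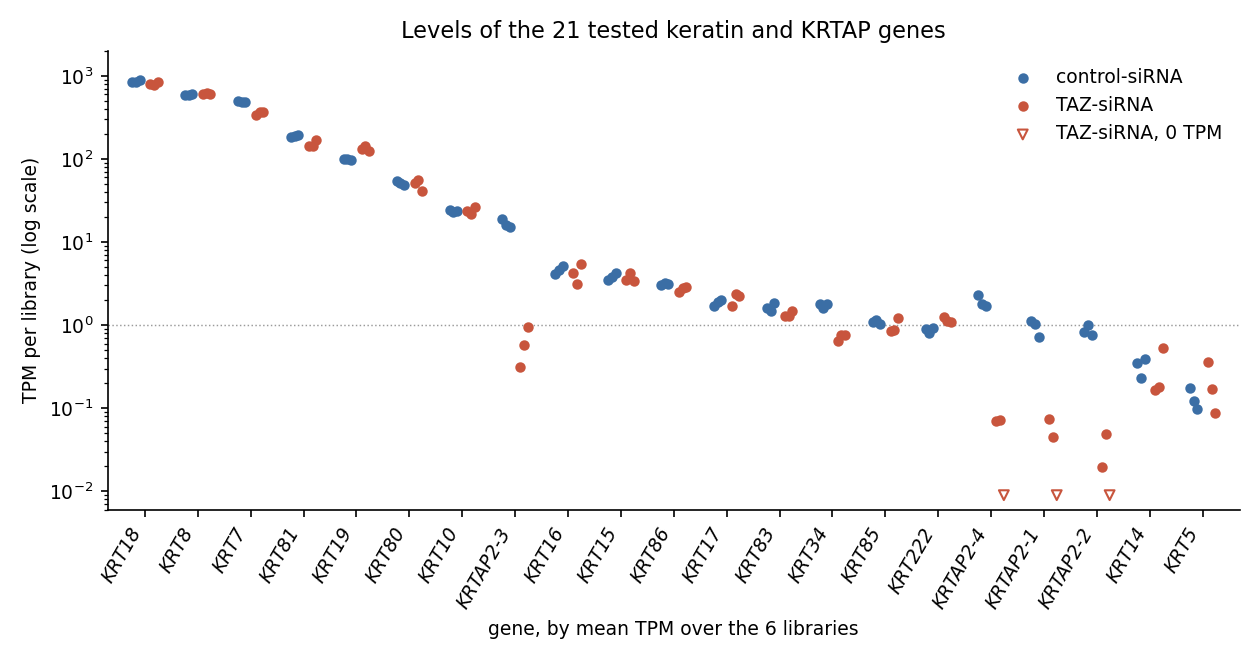
TPM of the 21 tested members in each of the 6 libraries on a log axis, with genes ordered by mean TPM, control-siRNA libraries in blue and TAZ-siRNA libraries in red. Open triangles mark libraries with 0 TPM, which occurred for KRTAP2-1, KRTAP2-2 and KRTAP2-4 in 1 TAZ-siRNA library, and the 4 KRTAP2 genes show the widest gap between the groups.

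Simple epithelial keratins made up most of the keratin mRNA. By mean TPM over the 6 libraries, KRT18 (827 TPM) came first, followed by KRT8 (602), KRT7 (421), KRT81 (171), KRT19 (116), KRT80 (50.2) and KRT10 (23.7). In the control-siRNA libraries, neighbours in this order did not overlap down to KRT10. KRTAP2-3 followed at 16.7 ± 1.89 TPM with control-siRNA, above KRT16 at 4.58 ± 0.503 and KRT15 at 3.86 ± 0.386 TPM, and the last 2 overlapped. In all, 16 members reached a mean of 1 TPM. The basal pair lay far lower, with KRT5 at 0.132 ± 0.0391 TPM and KRT14 at 0.323 ± 0.0834 TPM with control-siRNA.

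KRT7, a type II keratin of simple and glandular epithelia, had 368, 358 and 370 CPM with control-siRNA and 241, 263 and 278 CPM with TAZ-siRNA. All TAZ-siRNA libraries were below all control libraries, and KRT7 mRNA was significantly decreased (366 ± 6.38 against 261 ± 18.4 CPM, log2 fold change -0.49, SE 0.061, adjusted p = 0.00054). The gene lies on the plus strand of chromosome 12 (chr12:52233243-52252667) and overlaps KRT7-AS, an antisense gene with a mean of 0.239 CPM with control-siRNA and 0.155 CPM with TAZ-siRNA. In GENCODE it is also overlapped by KRT87P on the minus strand and by a long form of KRT86 on its own strand. Of its 5 transcripts, NM_005556 held 93.1 ± 0.824% of the gene's TPM with control-siRNA and 92.9 ± 1.16% with TAZ-siRNA, and the ranges overlapped. No stretch of 100 bases in the KRT7 mRNA was found in the mRNA of another gene.

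KRT19, a type I keratin without the usual tail domain, was the only member to rise. Its levels were 63.2, 62.3 and 64.7 CPM with control-siRNA and 77.6, 86.7 and 80.8 CPM with TAZ-siRNA, and every TAZ-siRNA library lay above the controls. Its mRNA was significantly increased from 63.4 ± 1.21 to 81.7 ± 4.65 CPM (log2 fold change 0.37, SE 0.054, adjusted p = 0.0012). KRT19 lies at chr17:41523617-41528308, beside KRT15 (3.37 ± 0.410 against 3.20 ± 0.305 CPM, adjusted p = 0.74), whose groups overlapped. KRT19 has 1 listed transcript, shares no 100-base stretch with another mRNA, and is overlapped by no other gene in GENCODE.

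KRT8 and KRT18, the filament pair of simple epithelia, were the most abundant members. KRT8 had 486, 491 and 523 CPM with control-siRNA and 475, 491 and 523 CPM with TAZ-siRNA, and the groups overlapped almost completely (log2 fold change -0.011, SE 0.060, adjusted p = 0.92). KRT18 had 535, 544 and 591 CPM against 479, 472 and 557 CPM, with TAZ-siRNA replicate 3 inside the control range (log2 fold change -0.15, SE 0.075, adjusted p = 0.19). Without that library the log2 fold change of KRT18 was -0.22 with an adjusted p of 0.0056. The ends of these genes overlap on opposite strands of chromosome 12. KRT80, an epithelial type II keratin, had 91.4 ± 4.12 CPM with control-siRNA and 84.5 ± 9.56 CPM with TAZ-siRNA (adjusted p = 0.31).

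**Figure D2:**
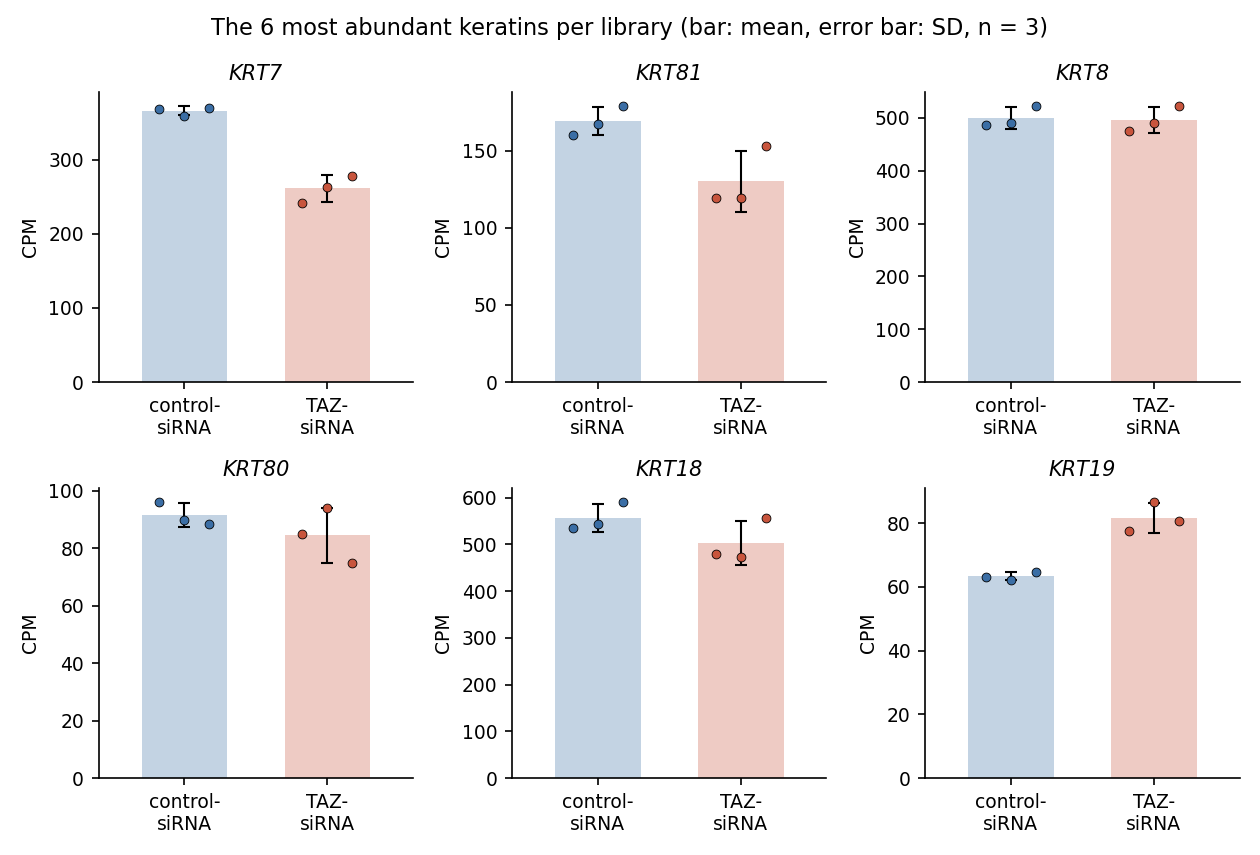
CPM of the 6 most abundant keratins in each library (points), with the mean (bar) and SD (error bar) of the 3 control-siRNA libraries in blue and the 3 TAZ-siRNA libraries in red; each axis starts at 0. KRT7 and KRT81 were lower and KRT19 higher in all TAZ-siRNA libraries, while the groups of KRT8, KRT80 and KRT18 overlapped.

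Among hair keratins, all 5 tested genes had a negative log2 fold change (median -0.31), and 2 of the 5 passed the test, against 22.1% of all genes. KRT81, the type II hair keratin of the hair cortex, was the fourth most abundant member with 160, 167 and 179 CPM after control-siRNA and 119, 119 and 153 CPM after TAZ-siRNA. The groups did not overlap, and TAZ-siRNA replicate 3 lay closest to the controls (169 ± 9.18 against 130 ± 20.0 CPM, log2 fold change -0.37, SE 0.095, adjusted p = 0.022). The call was lost without any of 4 single libraries, with an adjusted p of 0.065 without control replicate 2, 0.083 without control replicate 3, 0.092 without TAZ-siRNA replicate 1 and 0.064 without TAZ-siRNA replicate 2. Without TAZ-siRNA replicate 3 the log2 fold change was -0.50 with an adjusted p of 2e-06.

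KRT81 shares more sequence with its relatives than the other abundant keratins do. Of its 100-base stretches, 30.3% were also found in other genes, against 0 to 7.12% for KRT18, KRT8, KRT7, KRT19, KRT80 and KRT10, and most of them were in KRT86, which overlaps KRT81 on the opposite strand. Strand-specific libraries were made, but whether the counting used the strand is not given in the sources used here. The relatives were named after their values were seen. KRT86 had 9.40 ± 0.384 CPM with control-siRNA and 7.85 ± 0.846 CPM with TAZ-siRNA (adjusted p = 0.079), and its groups did not overlap. KRT83 had 1.42 ± 0.190 against 1.15 ± 0.140 CPM (adjusted p = 0.28) and KRT85 had 1.24 ± 0.0408 against 1.08 ± 0.276 CPM (adjusted p = 0.54), both with overlapping groups. Summed with KRT83, KRT86 and the pseudogene KRT87P, KRT81 gave 196 ± 11.1 CPM with control-siRNA and 153 ± 22.2 CPM with TAZ-siRNA (log2 fold change -0.36, SE 0.092, adjusted p = 0.021).

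KRT34, a type I hair keratin of the cortex at chr17:41377665-41383816, was expressed at a low level, with 97, 82 and 75 counts after control-siRNA and 37, 30 and 37 counts after TAZ-siRNA. In CPM these were 1.45, 1.32 and 1.54 against 0.507, 0.608 and 0.662, so the groups were far apart compared with the spread within them. KRT34 mRNA was significantly decreased from 1.44 ± 0.114 to 0.593 ± 0.0786 CPM (log2 fold change -1.28, SE 0.20, adjusted p = 0.0018), and the log2 fold change lay between -1.37 and -1.17 when each library was left out in turn. All of its TPM were assigned to the predicted transcript XM_011524793 and none to NM_021013. Only 0.911% of its 100-base stretches occurred in another gene, and no gene overlaps it.

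The KRTAP2 genes had the largest fold changes of the tested members. KRTAP2-3 was the best covered, with 498, 398 and 305 counts after control-siRNA and 9, 11 and 22 counts after TAZ-siRNA. Its level fell from 6.71 ± 0.655 to 0.247 ± 0.137 CPM (log2 fold change -4.81, SE 0.26, adjusted p = 6e-06). In the control libraries KRTAP2-3 alone gave 0.714 ± 0.0878% of the summed keratin and KRTAP TPM, and with TAZ-siRNA it gave 0.0285 ± 0.0144%. Among the TAZ-siRNA libraries, replicate 3 kept the highest level, 0.394 CPM, against 0.123 and 0.223 CPM in the other two.

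The other KRTAP2 genes were covered by few counts and were tested only because of their control libraries, so the sum of the 4 genes given further on is the firmer value. KRTAP2-4 had 54, 40 and 30 counts with control-siRNA and 2, 2 and 0 with TAZ-siRNA (adjusted p = 0.00025). KRTAP2-1 had 27, 23 and 13 counts against 2, 1 and 0 (adjusted p = 0.0013). KRTAP2-2 had 18, 21 and 13 counts against 1, 1 and 0 (adjusted p = 0.0013). All 3 were below the controls in every TAZ-siRNA library and at 0 in replicate 3, where KRTAP2-3 was highest. From the group totals, with exact binomial 95% intervals that cover counting error only, the level with TAZ-siRNA was 3.21% of control for KRTAP2-4 (interval 0.862 to 8.44%), 4.75% for KRTAP2-1 (0.953 to 14.5%) and 3.83% for KRTAP2-2 (0.452 to 14.6%). For KRTAP2-3 it was 3.48% (2.5 to 4.74%), and these intervals overlapped for all pairs of the 4 genes. Their fitted log2 fold changes, between -4.82 and -4.22, depend on edgeR's prior count where counts are this low.

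**Figure D3:**
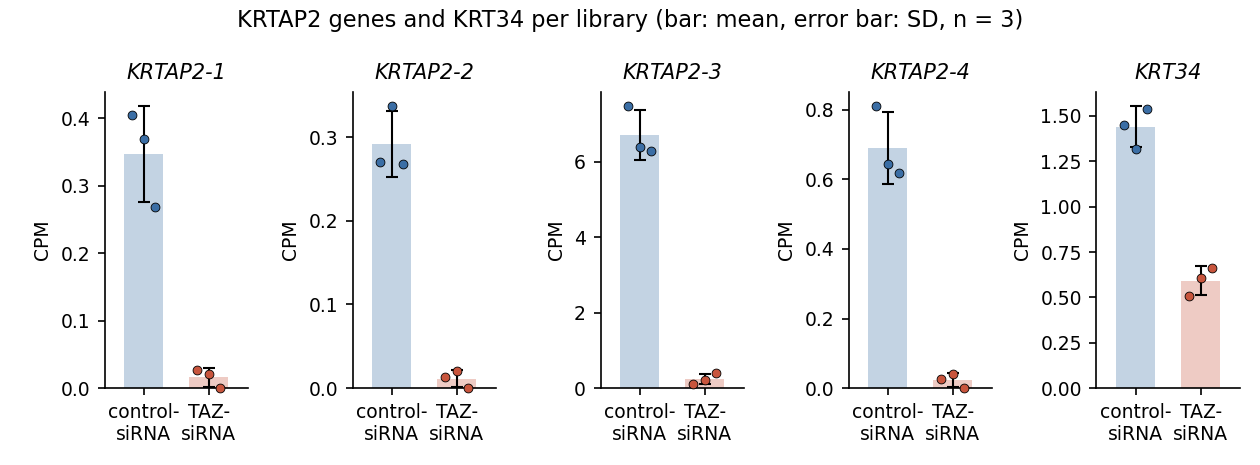
CPM of the 4 KRTAP2 genes and KRT34 in each library (points), with the mean (bar) and SD (error bar) of 3 control-siRNA libraries in blue and 3 TAZ-siRNA libraries in red, each gene on its own axis from 0. All TAZ-siRNA libraries lie below all control libraries for each of the 5 genes, and KRT34 keeps a larger share of its control level than the KRTAP2 genes.

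The KRTAP2 genes cannot be counted fully apart. Their mRNAs were 82.8 to 87.2% identical to each other in pairwise alignments, and 53% of the 100-base stretches of KRTAP2-1, 46.5% of KRTAP2-2, 34% of KRTAP2-3 and 48.1% of KRTAP2-4 also occurred in another KRTAP2 mRNA. The authors' quantification may therefore have split reads of 1 gene among several, and the counts of KRTAP2-1, KRTAP2-2 and KRTAP2-4 are uncertain for this reason. The sum of the 4 genes does not depend on that split, but shared reads that were dropped or counted more than once would affect it. How such reads were handled is not given in the sources used here. The sum was 597, 482 and 361 counts with control-siRNA and 14, 15 and 22 counts with TAZ-siRNA, or 8.04 ± 0.803 and 0.297 ± 0.101 CPM (log2 fold change -4.79, SE 0.20, adjusted p = 5.4e-07). With the 4 genes counted as 1, 5 of 18 tested members passed, nearer to the 22.1% over all genes. No gene in GENCODE overlaps the KRTAP2 genes, and the nearest called member, KRT34, lies 312 kb away.

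The clusters on chromosomes 17 and 12 were then compared. The chromosome 17 cluster, from KRT222 to KRT17, spans 970 kb (chr17:40654665-41624575) and holds 28 KRT and 33 KRTAP genes, of which 12 were tested and 6 called, 1 higher and 5 lower. The chromosome 12 cluster, from KRT80 to KRT18, spans 784 kb (chr12:52168996-52952906) and holds 27 KRT genes, of which 9 were tested and 2 called, both lower. These were 50% and 22.2% of the tested members, against 21.7% of 1000 other tested genes on chromosome 17 and 22.6% of 855 on chromosome 12. Without the KRTAP2 genes, 2 of 8 keratins on chromosome 17 were called (25%). The median log2 fold change was -0.16 on chromosome 17 and -0.20 on chromosome 12, and whether the clusters differ was not tested.

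On chromosome 17 the tested genes were KRT222 and KRT10 at one end, the KRTAP2 genes and KRT34 between (5 called genes next to each other among those tested), and KRT15, KRT19, KRT14, KRT16 and KRT17 at the other end. Levels of the last group were 0.252 ± 0.0679 against 0.226 ± 0.161 CPM for KRT14 (adjusted p = 0.85), 3.51 ± 0.462 against 3.13 ± 0.967 CPM for KRT16 (adjusted p = 0.63) and 1.32 ± 0.146 against 1.42 ± 0.257 CPM for KRT17 (adjusted p = 0.74), each with overlapping groups. KRT10 had 23.3 ± 1.09 against 22.7 ± 3.06 CPM (adjusted p = 0.81). KRT222, named after its values were seen, had 1.10 ± 0.0993 against 1.39 ± 0.0747 CPM (adjusted p = 0.18), with all TAZ-siRNA libraries above the controls. On chromosome 12, KRT5 had 12, 8 and 6 counts with control-siRNA and 25, 9 and 6 counts with TAZ-siRNA (log2 fold change 0.58, SE 0.50, adjusted p = 0.45), and without TAZ-siRNA replicate 1, its highest library, the log2 fold change was -0.018.

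Few other genes in these intervals were expressed. On chromosome 17, 1 of 13 other genes was tested, TMEM99, which extends over KRT10 and fell from 23.4 to 17.7 CPM (log2 fold change -0.40, SE 0.081, adjusted p = 0.0063). On chromosome 12, 2 of 13 other genes were tested. The pseudogene KRT87P fell from 16.8 to 13.5 CPM (log2 fold change -0.31, SE 0.091, adjusted p = 0.032), and KRT7-AS did not pass the test (adjusted p = 0.71). TMEM99 overlaps KRT10 and KRT87P overlaps KRT7, and how reads in such overlaps were assigned is not given in the sources used here. The values of TMEM99 and KRT87P may therefore not be independent of these keratins.

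**Figure D4:**
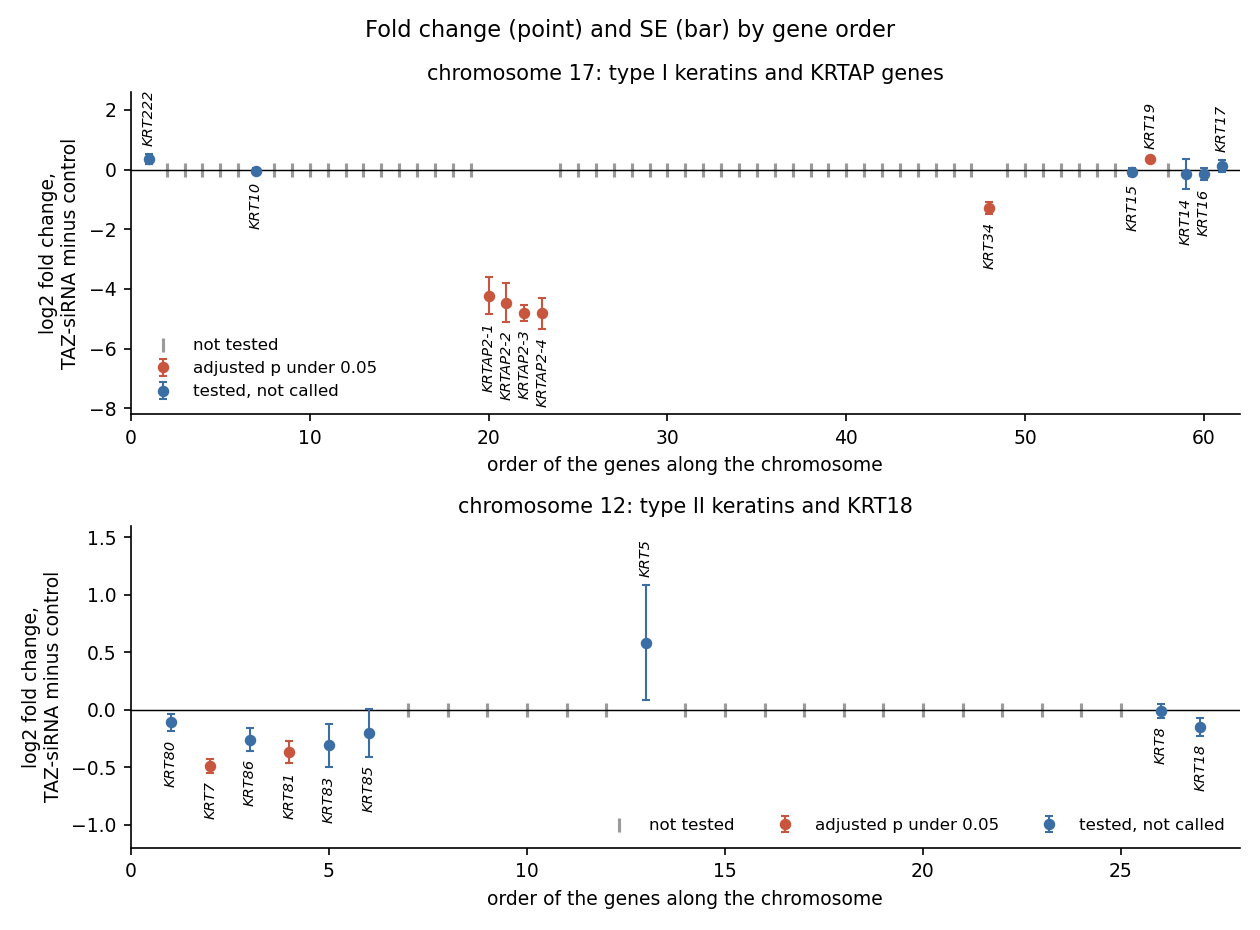
Log2 fold change (TAZ-siRNA minus control-siRNA, points) with SE (bars) of the tested members in their order along chromosome 17 (top) and chromosome 12 (bottom), where red points passed an adjusted p of 0.05, blue points did not, and grey ticks at 0 mark members that were not tested. The 4 KRTAP2 genes stand next to each other between -4.82 and -4.22, and the points of chromosome 12 lie between -0.49 and 0.58; the vertical scales differ.

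Summed over all 148 members, the level was 2316, 2318 and 2370 TPM with control-siRNA and 2097, 2140 and 2200 TPM with TAZ-siRNA, a fall to 91.9% of the control mean with no overlap between the groups. Sums over the members were not tested. The type II keratins summed to 1324 ± 7.36 TPM with control-siRNA and 1175 ± 27.3 TPM with TAZ-siRNA (88.7%), without overlap. The type I keratins summed to 989 ± 26.3 and 970 ± 33.2 TPM (98%), with overlapping groups. The type I sum per type II sum was 0.732, 0.744 and 0.765 after control-siRNA and 0.834, 0.796 and 0.846 after TAZ-siRNA, so it was higher in each TAZ-siRNA library.

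By chromosome, the sum was 157 ± 2.91 against 170 ± 7.53 TPM for chromosome 17 (108%) and 2178 ± 32 against 1976 ± 53 TPM for chromosome 12 (90.7%). Both pairs of groups were free of overlap, with a higher sum on chromosome 17 and a lower sum on chromosome 12. KRT19, the most abundant gene of chromosome 17, rose from 99 ± 0.986 to 133 ± 10 TPM, by more than the sum did. The other 5 called members of chromosome 17 were lower, so the higher sum does not describe the cluster as a whole. KRT7 was the most abundant called gene of chromosome 12. By class, hair keratins summed to 198 ± 6.48 against 158 ± 16.5 TPM (79.9%), simple epithelial keratins to 2081 ± 26.1 against 1951 ± 35.4 TPM (93.8%) and stratified epithelial keratins to 34.5 ± 1.15 against 34.6 ± 3.07 TPM (101%). Only the last of these overlapped. The 93 KRTAP genes summed to 20.6 ± 2.34 against 0.832 ± 0.278 TPM, or 4.03% of control.

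The make-up of the keratin mRNA shifted accordingly. The share of KRT7 in the summed TPM was 20.7 ± 0.628% with control-siRNA and 16.7 ± 0.51% with TAZ-siRNA, and that of KRT81 was 8.13 ± 0.196% and 7.07 ± 0.593%. The share of KRT19 was 4.24 ± 0.0884% and 6.19 ± 0.533%, and that of KRT8 was 25.4 ± 0.148% and 28.5 ± 0.622%, although the level of KRT8 itself did not pass the test. KRT18 made up 36.6 ± 0.649% and 37.3 ± 1.2%, with overlapping groups. Shares sum to a fixed total, so a smaller share of KRT7 raises the others.

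**Figure D5:**
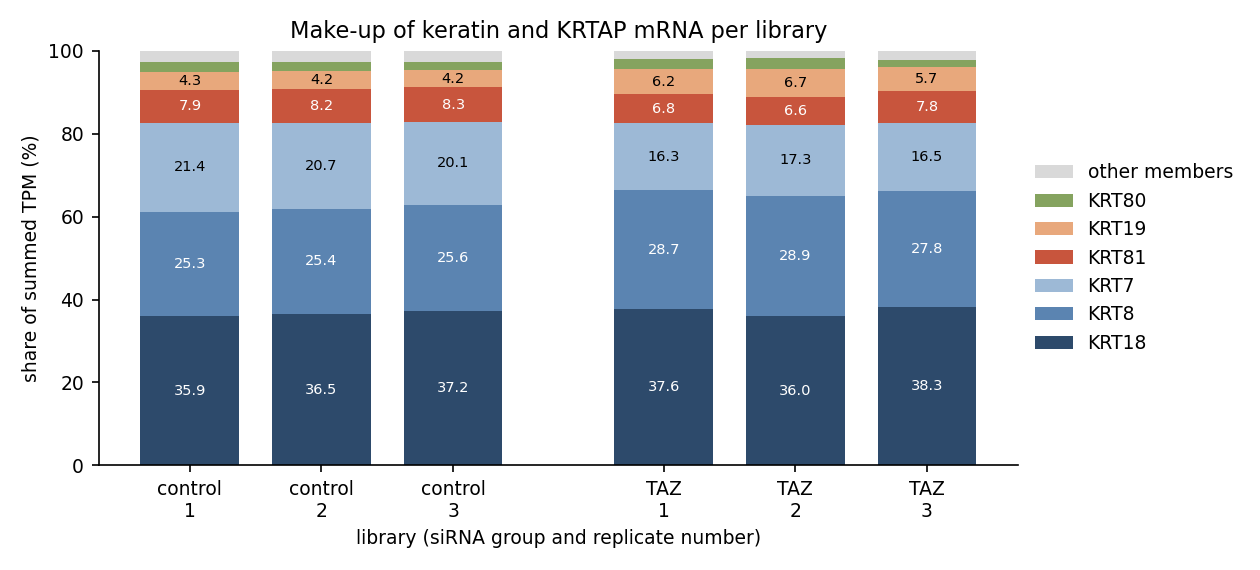
Share of each of the 6 most abundant keratins in the summed TPM of all 148 members (vertical axis, percent) in each control-siRNA and TAZ-siRNA library, with all other members in grey. The KRT7 segment lies between 20.1 and 21.4% for control-siRNA and between 16.3 and 17.3% for TAZ-siRNA, and the KRT19 segment between 4.15 and 4.33% and between 5.66 and 6.73%.

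Of 13 type II and type I pairs known to assemble together, 3 had both genes at a mean of at least 1 TPM, namely KRT8 with KRT18, KRT8 with KRT19 and KRT7 with KRT19. KRT8 per KRT18 was 0.695 ± 0.0083 with control-siRNA and 0.764 ± 0.0397 with TAZ-siRNA (ratio of TPM). KRT8 per KRT19 was 5.99 ± 0.16 and 4.61 ± 0.303, and KRT7 per KRT19 was 4.89 ± 0.0483 and 2.7 ± 0.185. None of the 3 ratios overlapped between the groups. These ratios share genes, and they were not tested.

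KRT18, KRT8 and KRT80 each had the same leading transcript in both groups. NM_000224 held 71.0 ± 3.56% of the KRT18 TPM with control-siRNA and 74.3 ± 1.41% with TAZ-siRNA, and NM_199187 held the rest. NM_002273 held 75.0 ± 6.51% and 76.6 ± 3.16% of the KRT8 TPM. For KRT80, NM_182507 held 63.9 ± 8.26% and 56.2 ± 2.46% and NM_001081492 held 34.7 ± 8.4% and 41.3 ± 1.07%. The transcript shares were not tested. KRT19, KRT81 and the KRTAP2 genes have 1 listed transcript each.

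Beyond the keratins themselves, genes of the filament system and of keratinising cells were examined. Of 35 genes for other filaments, desmosomes, hemidesmosomes and the plakins that link filaments to them, 25 were tested, 7 rose and 3 fell, against 22.1% called among all genes. Their median log2 fold change was 0.041. The 3 largest rises were in SYNM, which encodes the intermediate filament protein synemin (22.4 ± 3.03 to 34.3 ± 4.23 CPM, adjusted p = 0.0048), DSC2, a desmosomal cadherin (26.4 ± 0.846 to 38.2 ± 3.43 CPM, adjusted p = 0.00071), and LMNB1, a nuclear lamin (70.0 ± 2.58 to 95.3 ± 12.3 CPM, adjusted p = 0.0044). ITGA6, GFAP, ITGB4 and LMNA also passed the test in the upward direction. GFAP lost its call when any 1 library was left out. ITGB4 lost it without control replicate 1, 2 or 3 or TAZ-siRNA replicate 1, and LMNA without control replicate 1 or 2.

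The 3 falls were in DES, the muscle filament gene desmin (3.79 ± 0.389 to 2.24 ± 0.386 CPM, adjusted p = 0.0063), PKP2, a desmosomal plaque protein (27.4 ± 1.69 to 18.6 ± 0.488 CPM, adjusted p = 0.0004), and DST, the plakin dystonin (332 ± 29.8 to 271 ± 28.9 CPM, adjusted p = 0.036). DST lost its call without control replicate 1, control replicate 2 or TAZ-siRNA replicate 2. VIM, the filament gene with the highest level, had 3572 ± 139 and 3399 ± 141 CPM (adjusted p = 0.46). DSP, which anchors keratins at desmosomes, had 165 ± 4.03 and 181 ± 8.98 CPM (adjusted p = 0.091).

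Of 29 listed symbols for the cornified envelope and related keratinisation genes, 28 were in the table, 7 were tested and 1 passed, below the 22.1% of all genes. This was SCEL, which encodes sciellin, a precursor of the envelope, and which fell from 1.50 ± 0.392 to 0.295 ± 0.134 CPM (log2 fold change -2.33, SE 0.34, adjusted p = 0.0012). The median of the 7 was -0.47. Involucrin (IVL) and loricrin (LORICRIN) were at 0 in all libraries. Among 13 epithelial markers, 11 were tested, and CLDN4 and KRT19 rose while GATA3 fell. Among 8 mesenchymal markers, 7 were tested, and SPARC and SNAI2 rose. These were 3 of 11 and 2 of 7, near the share over all genes. The markers summed to 1574 to 1646 and 1586 to 1651 TPM for the epithelial list and to 3961 to 4155 and 4216 to 4323 TPM for the mesenchymal list, control-siRNA libraries first. The epithelial sum is mostly KRT8, KRT18 and KRT19, which are members. Their part in the keratin results was not tested.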

How the data were processed

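RNA-seq of 6 MDA-MB-231 preparations, 3 per group, was analysed. The authors used HISAT2 for mapping to GRCh38 after trimming and StringTie for quantification of RefSeq genes, whereas the submitters' processing notes name Bowtie 0.12.2. The deposited estimated counts are whole numbers, and the authors scaled the deposited FPKM and TPM values for length and depth. Whether counting used the strand is not given in the sources used here. No column of values lacked a sample. Replicate numbers follow the sample descriptions (1 to 3), not the titles.

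Counts were compared with edgeR 4.0.16 (R 4.3.3) with TMM factors, filterByExpr at a minimum count of 10 and robust quasi-likelihood dispersions, a method tested on simulated data. The biological coefficient of variation was 8.04%. Counts of replicates differed beyond sampling noise (chi-square per degree of freedom 6.79 to 41.1), and p-values measure the spread between cell preparations as the labels give them. Normalization factors lay between 0.9782 and 1.021. Deviations of same-numbered libraries from their group means were hardly correlated (r = -0.017, 0.009 and 0.07). With 3 libraries per group, these values cannot settle whether the numbers pair the libraries. A fit with a replicate block called 5122 of all genes, against 3749 without it. An exact permutation test of 3 libraries against 3 cannot go below a p of 0.1.

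Alternatives were DESeq2 1.42.0, upper-quartile factors, no filter or at least 1 CPM in 3 libraries, a replicate block, limma 3.58.1 on the log2 scale of FPKM with a pseudocount of 1 or 0.1, an adjusted p of 0.01, and leaving out each library. Sums over related genes and the search for TATAAA were added after the data had been seen. Gene coordinates are from the deposited transcript table. Shared 100-base stretches and overlaps are from GENCODE v44.

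Members and lists were chosen with earlier results of these data known. Named members are those called, the 10 with the highest mean TPM, partner pairs with both genes at 1 TPM or more, and KRT5, KRT7, KRT8, KRT14, KRT17, KRT18, KRT19, KRT34, KRT81 and KRTAP2-3. From the other lists, the 3 largest changes in each direction past the test were named. Protein sequences were not analysed here, and 1 marker of other cell types is not reported here.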

Additional observations from a re-analysis of the deposited data

How the results depend on the processing

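DESeq2, upper-quartile factors, no filter on low counts and limma on either FPKM scale each called the same 8 members. With at least 1 CPM in 3 libraries 5 members were called, 3 of them on chromosome 17, because KRTAP2-1, KRTAP2-2 and KRTAP2-4 were no longer tested, and with the KRTAP2 genes summed the count was 5. With a replicate block 10 members were called, 4 of them on chromosome 12, the additions being KRT18 and KRT86, and no call was lost. The count over all genes rose as well in that fit, from 3749 to 5122 of 16966. At an adjusted p under 0.01, 1 member of chromosome 12, 6 filament and linker genes and 1720 of all genes were called. With limma on log2(FPKM + 1), 2 cornified envelope genes were called. Leaving out each library gave 7 to 10 members, 1 to 4 on chromosome 12, 6 to 12 filament and linker genes and 1937 to 5928 of all genes, the highest without TAZ-siRNA replicate 3, and KRT81 lost its call in 4 of 6 such fits. The filament and linker count was 6 without control replicate 1 or 2, and all genes called were 2262, 1937 and 2115 without control replicates 1, 2 and 3 and 2046 without TAZ-siRNA replicate 1. Without single libraries the log2 fold changes of genes that were not called changed sign, with ranges of -0.14 to 0.037 for KRT10, -0.91 to 0.17 for KRT14, -0.16 to 0.014 for KRT15, -0.40 to 0.031 for KRT16, -0.018 to 0.88 for KRT5 and -0.046 to 0.022 for KRT8. In all, 199 of 216 values of named genes kept their direction and side of the threshold, 4 lost and 2 gained a call, and 11 changed sign. With limma on log2(FPKM + 1), where the pseudocount shrinks low genes, the log2 fold change was -0.41 for KRT34, -2.66 for KRTAP2-3, -0.45 for KRTAP2-1, -0.42 for KRTAP2-2 and -0.82 for KRTAP2-4, and with log2(FPKM + 0.1) it was -2.09, -2.05 and -2.92 for the last 3. In CPM, the summed level with TAZ-siRNA was 88.9% of control. The causes of these changes were not tested. Genes below 3 counts in the libraries of both groups cannot be compared at this depth.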

Other observations

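Some members with too few counts for the test are named here after their values were seen. KRTAP4-8, on chromosome 17 near the KRTAP2 genes, had 2, 6 and 3 counts with control-siRNA and 0, 0 and 1 with TAZ-siRNA. KRT79, a type II keratin of stratified epithelia, had 3, 16 and 0 counts with control-siRNA and 4, 9 and 9 with TAZ-siRNA. KRT9, a type I keratin of palm and sole skin, had 2, 0 and 0 counts with control-siRNA and 12, 0 and 0 with TAZ-siRNA, so nearly all of its counts came from 1 library. KRT32, a type I hair keratin of the cuticle, had 0, 5 and 0 against 5, 0 and 7 counts.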
